A study of Mus musculus with 31 samples.

Results

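The regions described here are 114 tiles of 100 bp whose CpG methylation was low in mouse oocytes of the later antral stage, Type7, and higher in oocytes of both primordial stages, Type1 and Type2. A tile was judged where it held at least 3 CpG sites of at least 5 reads in a library and was measured in at least 2 libraries of each of these 3 stages. Its methylation level was the methylated reads over all reads of those sites, in percent, and a stage level was the mean over libraries. A tile was kept when Type1 and Type2 were each at least 20 percentage points above Type7 and Type7 was under 40%. The rule kept 114 of 56810 judged tiles, which is 0.201%, and the series held 163347 tiles measured in any library. The tiles were thus chosen by their measured levels in Type1, Type2 and Type7, and those levels are given below as a description without a test.

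All samples were oocytes of B6D2F1 mice, an F1 hybrid of the C57BL/6 and DBA/2 strains, assayed by reduced representation bisulfite sequencing (RRBS). In RRBS the enzyme MspI cuts the DNA wherever it finds CCGG, so mostly CpG-rich sequence is read, and bisulfite turns unmethylated cytosines into bases that read as T. The 31 libraries fell into 9 stages of follicle growth: Type1 and Type2 were primordial, Type3a and Type3b primary, Type4, Type5a and Type5b secondary, and Type6 and Type7 antral. Each stage had 3 libraries, except Type4 and Type5a with 5 each. No treatment, genotype or age distinguished the groups in the labels, which also do not say how many oocytes or animals a library held, so the p-values here cover the spread among libraries, part of which may be technical. Reads over CpG sites ran from 7949652 to 60361665 per library, and a library measured between 38 (Type3a replicate 4) and 114 of the 114 tiles. A check of purity rested on the X chromosome: in female somatic cells CpG-dense sequence of the inactive X is methylated, while growing oocytes have no inactive X. The mean level of 63 CpG-dense X tiles minus that of 2902 CpG-dense autosomal tiles was above 0 in 9 libraries, reaching 10.6 points. They were 1 each of Type1 and Type3a, 3 of Type4, and 2 each of Type5a and Type6. The cut at 0 does not part distinct groups, since the lowest of the 9 was at 0.978 points and the highest of the others at -0.466. None was a Type7 library.

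In the mouse, oocytes of primordial follicles start with little DNA methylation, and most of it is laid down while the oocyte grows, by the de novo methyltransferase DNMT3A with its partner DNMT3L, largely over transcribed gene bodies. CpG islands mostly stay free of methylation, apart from those that are transcribed through, imprinted regions among them. A tile that is lower at the end of growth than at its start therefore runs against the main direction of change. Of the 14966 judged tiles at 20% or more in both Type1 and Type2, 3833 were at least 20 points higher in Type7 than in both, and 130 were at least 20 points lower; 16 of the 130 were still at 40% or more in Type7 and so were not kept.

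The tiles cannot be placed in genes here, because the files use the mm9 build and the annotation used here is of another build. The files give 5 bases around each CpG site, from which stretches of the tiles could be rebuilt. The 5 tiles below are shown because they were the ones called in a comparison between stages that did not choose them. They run 5′ to 3′ on the plus strand of mm9, from the first to the last listed site with its neighbouring bases, with the listed CpG sites in capitals and n for bases that the files do not give.
chr17:39983105-39983186: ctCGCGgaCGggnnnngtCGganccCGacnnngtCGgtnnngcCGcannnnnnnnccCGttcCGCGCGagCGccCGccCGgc
chr17:39983065-39983100: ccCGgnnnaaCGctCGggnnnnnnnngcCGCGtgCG
chr12:49441617-49441643: ggCGggcCGcnnnnngcCGgcnacCGt
chr6:10288621-10288698: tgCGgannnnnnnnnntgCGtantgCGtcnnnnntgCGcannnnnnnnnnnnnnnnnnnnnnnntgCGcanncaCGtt
chr16:83450506-83450582: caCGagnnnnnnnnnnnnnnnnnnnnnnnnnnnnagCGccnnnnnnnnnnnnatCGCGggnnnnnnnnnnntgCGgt
The first 2 stretches lie in neighbouring tiles and hold 14 and 6 listed sites; around them the files list 86 and 77 CpG sites per kb, counted in a window of 1 kb centred on each tile. From general knowledge of the mouse assembly, and not from an annotation used here, this place is a copy of the 45S ribosomal DNA, the repeated unit that encodes the large ribosomal RNA precursor; reads from its other copies in the genome cannot be told apart from it. The chromosome 12, 6 and 16 stretches hold 4, 6 and 5 listed sites and sit among 13, 8 and 28 listed sites per kb.

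In the libraries that chose them, the 114 tiles averaged 17.1 ± 0.751% in Type7, against 51.0 ± 5.49% in Type1 and 47.3 ± 4.38% in Type2 (SD, n = 3 libraries each). The Type7 libraries read 17.9, 16.4 and 17.2% over the tiles they measured, Type1 read 49.7, 46.3 and 57.1%, and Type2 read 44.8, 44.7 and 52.3%. Single tiles were less even than these means: in 52 of the 114, every Type7 library lay below every Type1 and Type2 library. That count rests on the values that chose the tiles, and no share over other tiles is given beside it. All 3 Type7 libraries measured only 46 of the 114. The tiles nearest to the threshold show where it cut. Just inside it were chr8:47464101-47464200, at 12.1% in Type7, 58.3% in Type1 and 32.2% in Type2, chr9:109269601-109269700 (21.3, 41.6 and 42.9%) and chr17:47047701-47047800 (0, 20.4 and 20.6%). Just outside were chr11:51975701-51975800 (9.31, 73.0 and 29.2%), chrX:150699101-150699200 (26.0, 45.8 and 49.7%) and chr13:27353301-27353400 (21.3, 50.5 and 41.1%).

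The stages between, which took no part in the choice, did not lead down to the level of the Type7 libraries that chose the tiles. The tiles averaged 40.5 ± 10.6% in Type3a, 45 ± 1.57% in Type3b, 51.0 ± 11.4% in Type4, 43.6 ± 10.6% in Type5a, 42.9 ± 2.77% in Type5b and 54.2 ± 8.02% in Type6 (SD, n = 3 libraries, 5 in Type4 and Type5a). The Type3a libraries read 52.0, 38.0 and 31.4%, and the Type3b libraries 46.7, 43.6 and 44.7%. Type4 read 54.3, 63.2, 39.3, 59.7 and 38.7%, and Type5a 45.1, 30.7, 51.8, 34.9 and 55.3%. Type5b read 40.04, 45.6 and 43.1%, and Type6 48.1, 63.3 and 51.3%. Every Type6 library thus lay within or above the range of the primordial libraries, and none of the 28 libraries outside Type7 read as low as a Type7 library. The other 14852 tiles at 20% or more in both primordial stages went the other way: they averaged 50.3 ± 6.06% in Type1, 72.9 ± 2.69% in Type6 and 66.2 ± 0.465% in Type7 (SD, n = 3).

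**Figure D1:**
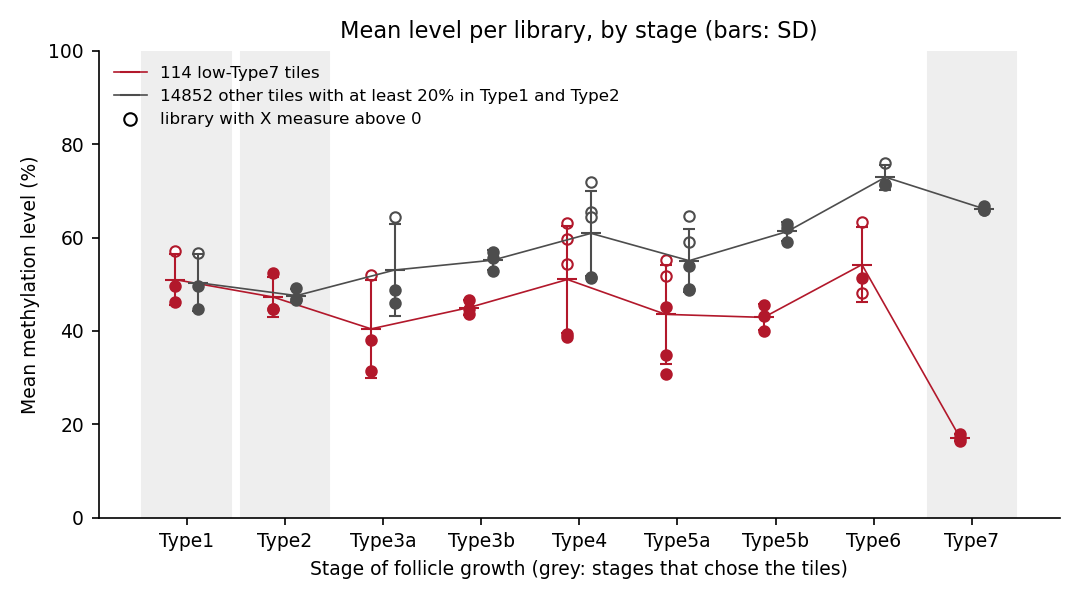
Mean methylation level (%) of the 114 tiles and of the other 14852 tiles at 20% or more in Type1 and Type2, by stage in order of growth; points are libraries, open points are the 9 libraries with raised X methylation described above, lines join the stage means, and error bars are the SD over libraries. The 114 tiles stay between 40.5 and 54.2% through Type6 and stand at 17.1% in Type7, one of the 3 stages that chose them.

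Tile by tile, most levels in the stages between lay nearer to the primordial level than to that of Type7. The midpoint between a tile's primordial mean and its Type7 level comes from the values that chose the tiles, so Type7 lies below it in each by construction, and the counts against it only describe the stages between. Of the tiles measured in at least 2 libraries of a stage, 58 of 83 were above it in Type3a, 59 of 82 in Type3b, 98 of 112 in Type4, 88 of 109 in Type5a, 59 of 86 in Type5b and 86 of 98 in Type6. In Type6, 60 of 98 tiles were above their own primordial mean and 10 were at 80% or more, with a median tile level of 56.1%. In 53 of the 98, every Type6 library was above every Type7 library, a count that rests on the Type7 values that chose the tiles. Among the 59 tiles measured in 2 or more libraries of every stage, 1 lay below the midpoint from Type3b on, 3 from Type5b on and 1 from Type6 on, and the other 54 were above it in Type6. Under 40% were 22 of 98 tiles in Type6, which is 22.4%, compared with 3.56% of the other tiles.

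**Figure D2:**
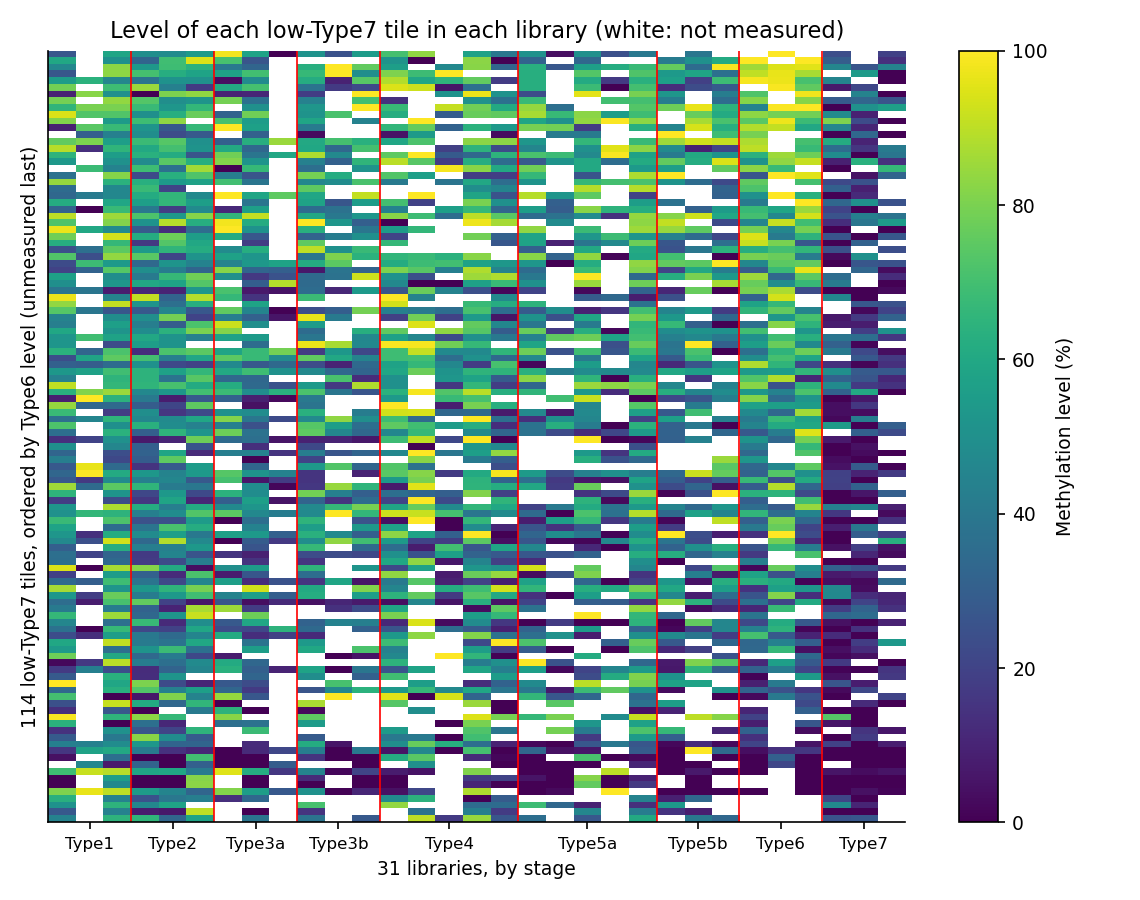
Methylation level (%) of each of the 114 tiles (rows, ordered by their Type6 level) in each of the 31 libraries (columns, by stage in order of growth); white cells were not measured. Low levels fill the Type7 columns, which chose the tiles, and are scattered over the others, and the rows at the foot that are dark in Type6 too are among the 22 tiles under 40% there.

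Because the Type7 libraries chose the tiles, the choice was repeated without each of them in turn, and the tiles were then read in the library left out. Type7 replicate 1 read 41.6% over 71 tiles chosen without it, against 17.2% in the 2 Type7 libraries that chose them. Type7 replicate 2 read 40.8% over 89 tiles, against 17.9% in the others, and Type7 replicate 3 read 41.7% over 94 tiles, against 16.1%. The left-out libraries thus averaged 41.4 ± 0.522% (SD, n = 3), on tiles that averaged 17.0% in the libraries that chose them. Of the tiles chosen, 19 of 71, 23 of 89 and 24 of 94 met the threshold again in the left-out library.

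Of these tiles, 67, 84 and 90 were measured in 2 or more Type6 libraries. Over them Type6, which chose nothing, read 59.0, 55.7 and 56.4%, so each left-out Type7 library was still below Type6. Among the libraries with raised X methylation were 2 of Type6 and none of Type7. The other 14852 tiles were also lower in Type7 than in Type6, at 66.2% against 72.9%, and whether the 2 differences are unlike was not tested. The primordial stages moved the opposite way when left out: Type1 libraries read 38.8, 34.8 and 51.4%, against 53.1, 52.0 and 54.2% in the Type1 libraries that chose, and Type2 libraries read 36.0, 34.8 and 41.7%, against 49.6, 48.5 and 49.3%.

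Leaving out 1 library of Type1, Type2 and Type7 together gives a value for all 3 stages that the choice did not use. This was done for all 27 combinations, as an alternative added after seeing the data. In the left-out libraries Type7 minus the primordial mean had a median of -1.08 points, with a range of -9.21 to 5.62, and it was below 0 in 18 of the 27. In the libraries that chose the tiles the median was -32.8 points, with a range of -36.4 to -30.4. The combinations share libraries and rest on 24 to 65 tiles each. The tiles had been picked as ones that lose methylation during oocyte growth. The stages between and the libraries left out go against that name for the group. The 114 are called the low-Type7 tiles here, which names only their level in the Type7 libraries that chose them. It is not a level seen in left-out Type7 libraries, which read 41.6, 40.8 and 41.7% when left out singly.

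**Figure D3:**
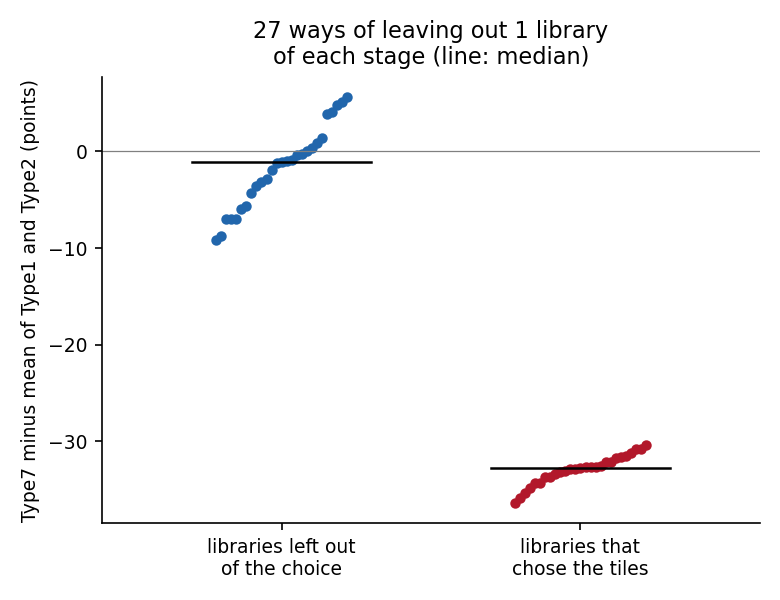
Type7 minus the mean of Type1 and Type2 (points) over tiles chosen again without 1 library of each of these stages, in the libraries left out and in those that chose; each point is 1 of the 27 combinations, which share libraries, and the black lines are medians. The left-out values lie around 0, from -9.21 to 5.62, and those of the choosing libraries from -36.4 to -30.4.

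The stages that chose nothing were compared with a quasi-binomial test of methylated and total reads, fitted over all tiles and adjusted by Benjamini-Hochberg over all tiles tested in a comparison. A call needed a difference of 20 points or more together with an adjusted p under 0.05. On simulated data for Type6 against primary, the fit called 42% of 50 tiles changed by 50 points. It called 4% of 50 tiles changed by 20 points. At an unadjusted p under 0.05 in the same test the shares were 94% and 28%, so most changes of the smaller size were missed there even before adjustment. Few of the 49372 simulated tiles were changed, which makes the adjustment stricter than where many tiles are called. The spread between simulated libraries was also set rather than taken from the data. The called shares therefore do not give the detection limit of the real comparison.

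Between Type6 and the primary stages, 66 low-Type7 tiles could be tested; 2 were called lower and 2 higher. Over all 49372 tiles tested, 0.0446% were called lower and 17.7% higher, and of the other tiles at 20% or more in the primordial stages 22.4% were called higher. The median difference was 11.1 points over the low-Type7 tiles, 4.62 points over all tiles and 17.0 points over those others, and 51 of the 66 were in the direction of a higher level in Type6. At an unadjusted p under 0.05, 2 were lower and 9 higher.

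**Figure D4:**
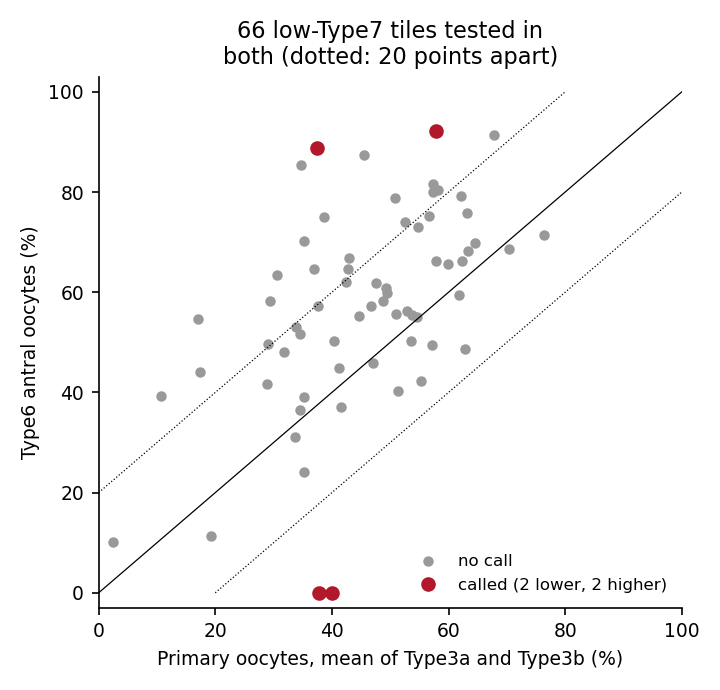
Methylation level (%) in Type6 plotted against the mean of Type3a and Type3b for the 66 low-Type7 tiles tested in both, with the 2 called lower and the 2 called higher in red, a solid line of equal level and dotted lines 20 points from it. Most points, 51 of 66, lie above the line, and the 2 called lower are the neighbouring chromosome 17 tiles at or near 0 in Type6.

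The 2 called lower in Type6 were the chromosome 17 tiles. In chr17:39983101-39983200, the level was 0.101 and 0% in the 2 Type6 libraries that measured it, against 95.0, 61.9 and 16.2% in Type3a and 44.8, 1.65 and 20.7% in Type3b. The difference was -39.98 points (quasi-binomial test, adjusted p = 0.0279). In chr17:39983001-39983100 it was 0 and 0% in Type6, against 81.3, 55.8 and 27.6% in Type3a and 50.4, 0.570 and 10.9% in Type3b, a difference of -37.8 points (quasi-binomial test, adjusted p = 0.0354). The Type6 and primary libraries did not overlap in either tile, although 1 Type3b library was within 2 points of Type6 in both.

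The same tiles were high at the start of growth and low well before Type7. The chr17:39983001-39983100 tile read 80.5, 96.6 and 89.9% in Type1 and 54.7, 45.2 and 32.5% in Type2. Type4 read 4.67, 21.4 and 88.0%, and Type5a 0, 2.56 and 100%, so that 1 library of each stage stood high while the others were low. All later libraries were near the floor, at 0, 0 and 0.439% in Type5b, 0 and 0% in Type6 and 0, 4.52 and 0.858% in Type7. The chr17:39983101-39983200 tile followed it, with 69.0, 91.6 and 89.4% in Type1, 58.5, 59.6 and 41.3% in Type2, 7.75, 5.06 and 80.9% in Type4, and 0, 0 and 90.1% in Type5a. Its Type5b libraries read 0, 6.71 and 0.727%, and its Type7 libraries 5.62, 3.33 and 5.36%. The high Type4 and Type5a libraries were replicates 5 and 6 in both tiles. Type4 replicate 5 is among the 9 libraries high on X, and so is Type3a replicate 1, the highest primary library in both tiles. Type5a replicate 6 is not, and Type4 replicates 1 and 2, which are high on X too, were the low ones of Type4. These were the tiles with the 2 largest gaps between Type7 and the primordial mean, of 64.8 and 63.4 points, and their Type7 levels rest on 448 and 1005 reads. The 2 calls were lost, with the difference still negative, when Type3a replicate 1, Type3a replicate 2, Type3b replicate 1 or Type3b replicate 3 was left out (adjusted p up to 0.121), and without Type6 replicate 1 or 3 they were not tested, since Type6 then had fewer than 2 libraries there. They were also lost in 4 of 8 other settings, among them limma (adjusted p up to 0.179). Another of these settings was the fit without the 9 libraries high on X, which left 1 Type6 library and so cannot judge the calls. The differences there were -30.7 and -31.2 points.

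The 2 called higher in Type6 had their highest stage mean there. The chr6:10288601-10288700 tile read 98.6, 97.1 and 70.9% in Type6, against 4.08 and 48.3% in Type3a and 62.1, 9.59 and 74.2% in Type3b, a difference of 51.5 points (quasi-binomial test, adjusted p = 0.0112). Its 2 Type7 libraries disagreed, at 45.3 and 0%, and rest on 193 reads. The chr16:83450501-83450600 tile read 85.9, 94.8 and 95.6% in Type6, against 40 and 32.4% in Type3a and 62.7, 100 and 76.0% in Type3b, a difference of 34.2 points (adjusted p = 0.0117, same test). Its Type7 libraries read 45.9, 26.4 and 44.6%. In the chromosome 6 tile 1 Type3b library lay within the Type6 range, and in the chromosome 16 tile 1 Type3b library, at 100%, lay above it. The chromosome 6 call was lost without Type6 replicate 1 or 2. These 2 libraries, at 98.6 and 97.1% there, are among the 9 high on X, and Type6 replicate 3, at 70.9%, is not. In the chromosome 16 tile Type6 replicate 3 read 95.6%. Neither tile was tested without Type3a replicate 1 or 2, since Type3a then had fewer than 2 libraries there. Each of these 2 calls held in 6 of 8 other settings. Another setting, the fit without the 9 libraries high on X, left 1 Type6 library and 1 Type3a library in both tiles. It therefore cannot judge the calls. The difference there was 22.5 points for the chromosome 6 tile and 39.6 points for the chromosome 16 tile.

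The remaining comparisons called 1 low-Type7 tile among them. In Type4 and Type5a against the primary stages none of 65 was called, beside 0% of all tiles lower and 0.265% higher; at an unadjusted p under 0.05, none was lower and 2 were higher, and limma on transformed levels called 0. In Type6 against Type5b none of 81 was called, beside 0.054% of all tiles lower and 1.55% higher; at an unadjusted p under 0.05, none was lower and 8 were higher, limma called 0, and the median difference was 10.2 points. In Type5b against Type4 and Type5a, 1 of 83 was called lower and none higher, beside 0.736% of all tiles lower and 7.59% higher. The median difference there was -8.70 points, against 0 over all tiles and 3.20 over the others at 20% or more in the primordial stages. A lower level in Type5b was seen in 55 of the 83 tiles, and 20 were at least 20 points lower; 7 were lower and 4 higher at an unadjusted p under 0.05. Of the libraries with raised X methylation, 3 were of Type4, 2 of Type5a and none of Type5b. Over the 114 low-Type7 tiles, the remaining libraries averaged 39.0% in Type4 and 36.9% in Type5a, below the 42.9% of Type5b. The part of the libraries with raised X methylation in the lower Type5b level was not tested.

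The tile called there was chr12:49441601-49441700. It read 2.11, 12.3 and 2.36% in Type5b, against 49.1, 76.8, 62.5, 36.0 and 9.55% in Type4 and 2.04, 0, 27.3, 40 and 26.8% in Type5a, a difference of -27.4 points (quasi-binomial test, adjusted p = 0.0410). The groups overlap, since 2 Type5a libraries and 1 Type4 library lay within or below the Type5b range. Type6 read 20.4 and 5.65%, and Type7 19.3, 0 and 8.42%, against 43.2, 43.7 and 48.5% in Type1 and 53.0, 32.3 and 32.0% in Type2. The call remained in 5 of 13 fits that each left out 1 library of these stages, and the adjusted p ran up to 0.216 in the rest. Of 8 other settings, only the fit with reads counted in full made the call. In the fit without the 9 libraries high on X, the difference was -19.4 points (quasi-binomial test, adjusted p = 0.546).

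**Figure D5:**
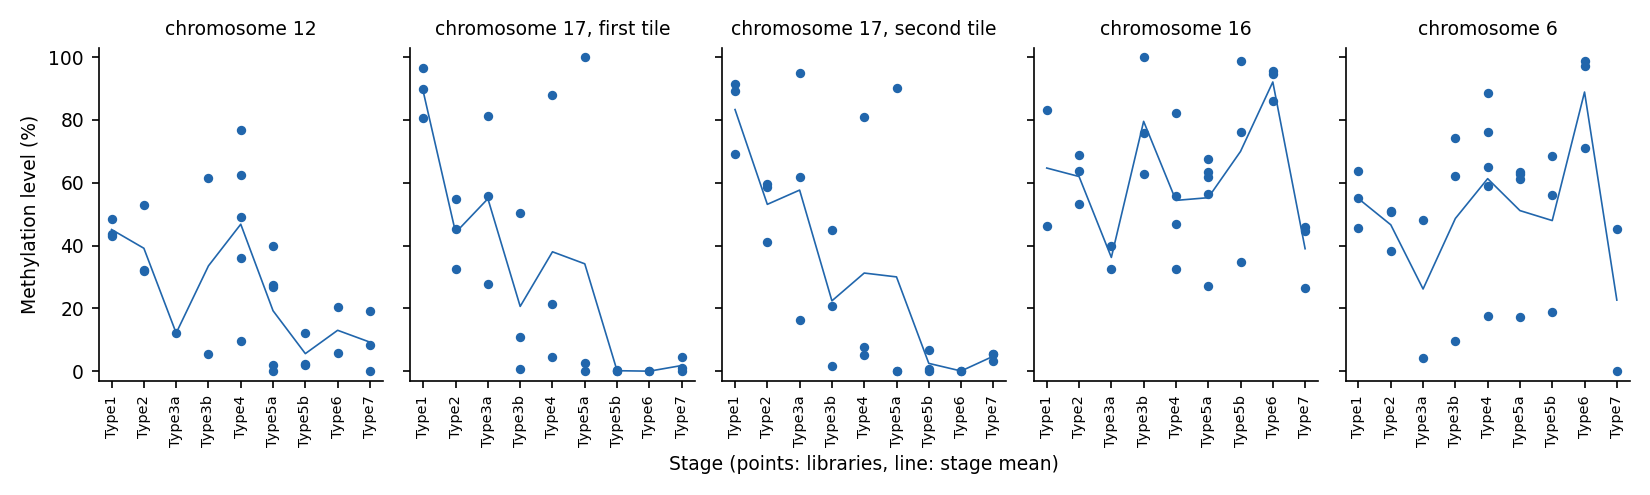
Methylation level (%) in each library, by stage in order of growth, for the 5 low-Type7 tiles called in a comparison of stages that did not choose them; each panel is a tile and each point a library. The chromosome 17 pair lies at 0 to 6.71% in every Type5b, Type6 and Type7 library, and the chromosome 6 and 16 tiles are highest on average in Type6.

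Which tiles were kept depended on single libraries. Of the 21 tiles that could be judged in all 9 choices with 1 library left out, 5 were kept each time. These were the chromosome 17 pair, the chromosome 12 tile, chr3:93654201-93654300 and chr11:7554001-7554100. The chromosome 3 tile read 19.1, 10 and 16.8% in Type7, against 32.8, 100 and 61.3% in Type1 and 52.9, 44.6 and 53.8% in Type2, with no overlap. Its Type6 libraries read 31.6, 73.3 and 50.3%. The chromosome 11 tile read 40.9, 22.1 and 3.75% in Type7, against 63.9, 33.2 and 71.8% in Type1 and 13.1, 71.5 and 74.8% in Type2, and here the groups overlap. It read 36.5, 64.9 and 78.0% in Type6.

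Among the 59 tiles measured in every stage, the 10 with the largest gap between Type7 and the primordial mean include the chromosome 17 pair and 8 others, with gaps of 42.5 to 57.7 points. In these 8, Type6 averaged between 48.0 and 87.3%, and Type7 between 0 and 35.8%. They are chrX:89087601-89087700, chr4:63583101-63583200, chr1:56194201-56194300, chr14:72191501-72191600, chr2:111422201-111422300, chrX:89087201-89087300, chr4:81445401-81445500 and chr3:90903101-90903200. In chr4:63583101-63583200, the 2 Type7 libraries read 16.0 and 2.81%, against 50.5, 66.2 and 64.7% in Type1 and 43.2, 48.6 and 72.9% in Type2. All primordial libraries were above both Type7 libraries there, and Type6 read 65.9, 35.4 and 45.1%. In chr2:111422201-111422300, both Type7 libraries read 0% over 97 reads, against 97.2, 60 and 48.3% in Type1 and 28.6, 13.2 and 35.7% in Type2, while Type6 read 79.2, 46.5 and 79.0%. In chr1:56194201-56194300, Type7 read 0.686, 0 and 14.2%, against 67.7 and 72.2% in Type1 and 24.8, 24.3 and 54.8% in Type2. Its Type4 libraries ranged from 0 to 100%, and Type6 read 30.3, 79.8 and 33.9%.

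The other 5 of these tiles likewise had Type6 libraries well above Type7. In chrX:89087601-89087700, Type7 read 25.8, 0 and 27.6%, against 78.4 and 93.3% in Type1 and 61.9, 78.1 and 55.8% in Type2, with Type6 at 94.6, 41.2 and 64.7%. In its neighbour chrX:89087201-89087300, Type7 read 47.9, 16.9 and 14.8%, against 90.3 and 66.3% in Type1 and 65.4, 71.0 and 61.2% in Type2, with Type6 at 82.2, 25 and 64.5%. The primordial libraries were above every Type7 library in both, while 1 Type6 library fell inside the Type7 range of the second. In chr4:81445401-81445500, the 2 Type7 libraries were far apart, at 48.1 and 9%, against 94.4, 72.7 and 72.7% in Type1 and 49.7, 62.8 and 77.3% in Type2, and Type6 was even, at 83.2, 79.1 and 78.7%. In chr3:90903101-90903200, Type7 read 25.8, 43.1 and 38.5%, against 89.9 and 85.2% in Type1 and 72.1, 53.2 and 81.9% in Type2. There the groups did not overlap, and Type6 read 69.9, 46.2 and 93.7%. In chr14:72191501-72191600, Type7 read 6.65 and 21.2%, against 78.8 and 68.9% in Type1 and 85, 43.5 and 17.1% in Type2, so that 1 Type2 library overlapped Type7, and Type6 read 99.2 and 75.5%.

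Libraries of a stage disagreed more on the low-Type7 tiles than on the others at 20% or more in the primordial stages. The median SD between libraries of a tile was 20.4 points in Type6, against 7.17 points for the other tiles, and it was 25.05 against 14.03 points in Type4 and 15.6 against 7.11 points in Type2. The tiles were also more thinly read: the median was 85 reads per tile in Type7, against 228 for the other tiles, and 40.4% of the low-Type7 tiles were measured in all 3 Type7 libraries, against 81.9%. These values stand beside the gap between choosing and left-out libraries, and their part in it was not tested.

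The tiles lay mostly where few CpG sites were listed. This count depends on which sites were read, and the tiles were more thinly read, so it does not give the CpG content of the sequence. The median was 14.5 listed sites per kb, against 21 for the other tiles at 20% or more in the primordial stages and 23 for all judged tiles. Under 20 sites per kb were 78 of the 114, or 68.4%, against 44.3% of those others and 42.3% of all judged tiles. None fell between 40 and 60 sites per kb, a range that holds 1752 of the 14966 tiles, and the 2 at 60 or more were the chromosome 17 pair. Sites in the MspI motif CCGG made up 85 of 545 listed sites, 15.6%, close to the 15.04% of the other tiles. In Type6, which chose nothing, these sites averaged 57.3% and the remaining sites of the tiles 54.2%; in Type7, where the tiles were chosen for a low level, they averaged 22.7 and 17.5%.

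The tiles were scattered over the genome. They formed 105 separate places: 99 tiles had no other low-Type7 tile within 1 kb, and 15 tiles fell into 6 groups. The X chromosome held 12 of the 114, or 10.5%, against 9.74% of the other tiles at 20% or more in the primordial stages, and chromosome 19 held none of 1483. The largest group was 5 tiles within chrX:89087201-89088800, which averaged 25.6% in Type7, against 75.1% in Type1 and 61.6% in Type2, with 38.8% in Type4, 35.9% in Type5b and 71.5% in Type6. A pair at chr7:108031601-108031800 averaged 0% in Type7, against 25.7% in Type1 and 27.4% in Type2, and read 0% in the 1 library that measured it in each of Type6, Type5b and Type3a. Type5a replicate 5 stood high in both of its tiles, at 81.7 and 76.0%. Its primordial level rests on few libraries: the first of its tiles read 0 and 56.2% in Type1 and 0, 0 and 82.0% in Type2.

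Neighbouring tiles that met the rule are themselves among the 114, so the judged tiles that lie beside one and were not kept are a set that the choice has trimmed, and their levels are given as a description. The 55 directly beside one averaged 47.5% in Type7, against 49.0% in Type1 and 46.5% in Type2, and 60.7% in Type6; 3 of the 55 were at least 20 points lower in Type7 than in both primordial stages. Lower in Type7 than in both by any amount were 23 of the 55, which is 41.8%, against 10.1% of the 1037 tiles directly beside one of the other tiles at 20% or more in the primordial stages and 17.6% of all judged tiles. Tiles beside those others averaged 39.2% in Type7, against 23.6% in Type1 and 18.9% in Type2, and 48 of the 1037 were at least 20 points lower. Outside the low-Type7 tiles only 16 judged tiles were that much lower, so most of the 48 are low-Type7 tiles themselves. The 55 leave the low-Type7 tiles out, and the 1037 do not. The 1037, like all judged tiles (17.5% in Type1), started lower than the 55 and had less room to fall. The shares therefore come from unlike sets and cannot be compared directly. The 36 tiles at 200 bp averaged 55.2% in Type7, against 48.4% in Type1 and 44.7% in Type2. Within the tiles themselves, 71 were measured on both strands in the 3 stages, with at least 5 reads per strand; in the values that chose them, both strands of 34 were at least 20 points lower in Type7 than in the primordial mean, in 34 only 1 strand was, and in 3 neither was.

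The 9 libraries with raised X methylation read higher over the low-Type7 tiles than the others of their stage in Type1, Type3a, Type4 and Type5a, but not throughout in Type6, where they read 48.1 and 63.3%, against 51.3% in the other library. Within Type4 they read 54.3 to 63.2% over the low-Type7 tiles, against 38.7 to 39.3% in the others; within Type5a they read 51.8 to 55.3%, against 30.7 to 45.1%. The same libraries were also higher over the other tiles at 20% or more in the primordial stages, at 64.3 to 71.9%, against 51.4 to 51.6% in Type4, and at 59.2 to 64.6%, against 48.8 to 53.8% in Type5a. Their part in the stage levels was not tested. Without the 9 libraries the rule kept 33 tiles, 29 of them among the 114. Of the 9, only Type1 replicate 3 belonged to a stage that chose, and leaving it out alone gave the same 33 and 29. Type1 replicate 2 measured 49 of the 114 tiles, so few tiles then kept 2 Type1 libraries. These 33 averaged 15.7% in Type7, 54.2% in Type1 and 52.4% in the 1 Type6 library left. In Type7 the 12 tiles on X averaged 20.3 ± 5.57% and the 102 on autosomes 16.7 ± 0.471% (SD, n = 3 libraries).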

How the data were processed

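RRBS of 31 mouse oocyte libraries was analysed. The submitters' processing notes name BSMAP 2.89 and mm9. Which methylation caller was run, and whether reads were trimmed, is not given in the sources. Per the labels' protocols, oocyte DNA was cut with MspI, bisulfite converted and amplified by PCR. For every listed CpG the deposited files hold a read count, a count of methylated reads and both counts split by strand. They also hold the methylated fraction per site, as the authors give it, which was not used for tests. No site under 3 reads is listed. Without molecular identifiers, PCR copies are counted as reads. C-to-T strain variants lower a level, and failed conversion raises it.

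Stages were taken from the sample titles; another label that names embryo stages contradicts them and was not used. No library was treated as a duplicate: identical counts were found at no more than 1.01% of sites (20 reads or more) in any of 41 same-stage pairs. Sites of at least 5 reads were summed into 100-bp tiles of at least 3 sites. Each tile was fitted with a quasi-binomial model on the identity scale with stage as factor over all libraries, with its dispersion shrunk across tiles by the squeezeVar method (checked against limma 3.58.1) and floored at 1. Contrasts had an F test and Benjamini-Hochberg adjustment. Reads of a tile in a library were weighted as N/(1 + 0.05(N - 1)); this was added after simulated data showed too many calls with reads counted in full, and the full count is an alternative. With it, 0.00203% of 49172 unchanged simulated tiles were called for Type6 against primary, and 5.3% had an unadjusted p under 0.05.

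The members and lists were chosen with earlier results of these data known. Named tiles are the 10 with the largest gap among those measured in every stage, those called (up to 5 per direction and comparison) and the 3 nearest to either side of the threshold; the chromosome 3, 7 and 11 tiles and the X group were named after their values were seen. Alternatives changed the read minimum, the read cap, the sites per tile, the tile grid, the samples and the model. Python 3.11.15 with numpy 2.4.6, scipy 1.17.1, pandas 2.3.3 and matplotlib 3.10.9, and R 4.3.3, were used.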

Additional observations from a re-analysis of the deposited data

Results flagged for a closer look

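In 21 sets of 4 or 5 libraries of a stage, taken over the named tiles, 4 held a library far from the others, all in Type5a. The nominal chance rate is about 1 in 20. It need not hold here, since the sets share libraries and the tiles were picked by their levels. In the chromosome 14 tile at 72191501, Type5a replicate 6 read 0%, against 62.5 to 70.2% in the other Type5a libraries. In the chromosome 6 tile at 10288601, Type5a replicate 6 read 17.1%, against 61.1 to 63.5%. In the chromosome X tile at 89087201, Type5a replicate 1 read 32.7%, against 80 to 84.8%. In the chromosome 16 tile at 83450501, Type5a replicate 4 read 27.1%, against 56.4 to 67.6%. All 4 libraries were below the others of their set.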

How the results depend on the processing

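The rule kept 114 tiles, 86 with 10 reads per site, 122 with at most 10 reads counted per site, 130 on a grid shifted by 50 bp, 208 with 2 sites per tile, 33 without the 9 libraries high on X, and 33 to 136 without 1 library (33 without Type1 replicate 3, 55 without Type1 replicate 1).

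Type6 against primary called 4 of the 66 low-Type7 tiles tested, 1 by limma and 9 with reads in full. Here and below, the tiles were chosen anew for another read minimum, read cap, site minimum or grid. They were also chosen anew without the libraries high on X. Of the tiles then tested, it called 1 of 54 with 10 reads per site, 7 of 130 with 2 sites per tile and 7 of 81 on the shifted grid. The chromosome 6 and 16 tiles were both still called with 10 reads per site in the fit over all tiles. Type6 against primary called 0 to 4 without 1 library (0 without Type3a replicate 1 or 2, 2 without Type3b replicate 1 or 3). Without the libraries high on X, Type6 had 1 library left, and no count is given. Type5b against Type4 and Type5a called 1, 2 with 10 reads per site, 4 with 2 sites per tile, 4 with reads in full, 0 to 2 without 1 library, and 0 with at most 10 reads counted, on the shifted grid, with only its own stages fitted, by limma, with the replicate number as a block and without the libraries high on X. Type6 against Type5b called 0, 1 with 2 sites per tile, 2 on the shifted grid, 1 with the block, 3 with reads in full, and 0 to 1 without 1 library. Type4 and Type5a against primary called 0 in every alternative.

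The chromosome 17 pair was not called with 10 reads per site, with only its own stages fitted or by limma, and the cause was not tested. The fit without the libraries high on X left 1 Type6 library and cannot judge the pair. Same-numbered libraries shared only a number (correlation -0.229 to 0.235 over 84 pairs); with the block, Type6 against primary called 5.

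Over all tiles, Type6 against primary called 8754, and 5913 with only its own stages fitted, 7705 with the block, 8630 by limma and 10435 with reads in full. Type4 and Type5a against primary called 133, and 3, 36, 29 and 373. Type5b against Type4 and Type5a called 5261, and 2920, 2058, 3771 and 6122. Type6 against Type5b called 979, and 0, 671, 640 and 2496. How far read depth limits the calls was not tested.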
